A study of Danio rerio with 13 samples.

Results

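The genes described here are 10 genes of the ATF4 stress pathway and of the amino acid synthesis that ATF4 controls: atf4a, atf4b, ddit3, trib3, chac1, asns, phgdh, psat1, psph and pycr1a. They were chosen by symbol, with their levels and fold changes in these same comparisons already known. Their values are therefore given as a description, with no p-value. All 10 are listed in the table of 32417 entries, and 9 passed the filter on low counts. The exception is chac1, which had 0 counts in every library.

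RNA was sequenced from 13 libraries of zebrafish larvae. All carry the transgene Tg(fli1:EGFP), in which the fli1 promoter drives EGFP in endothelial cells. There were 5 wild-type libraries without treatment, 3 untreated libraries in which both copies of aldh3b1, an aldehyde dehydrogenase gene, had been disrupted with CRISPR, and 5 libraries of wild-type larvae given 2-HD. What 2-HD stands for is not said in the labels, nor are its dose and duration, the age of the larvae, how many went into a library or the kind of mutation. There is no group labelled as given vehicle alone. Nothing says that libraries of a group came from separate clutches, so errors and p-values cover only how far these samples lie apart, which can be technical.

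ATF4 is the main transcription factor of the integrated stress response. Kinases that sense misfolded protein in the endoplasmic reticulum, amino acid shortage, viral RNA or lack of haem phosphorylate the translation factor eIF2alpha, which slows protein synthesis as a whole while translation of ATF4 mRNA increases. In mammals ATF4 then induces genes for the import and synthesis of amino acids, for charging of tRNAs and, when stress lasts, for cell death. Since ATF4 activity depends on translation and protein stability, the mRNA level of atf4a or atf4b does not measure it.

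Total counts ranged from 17975289 to 19482661 per library, and the unit below is CPM, counts scaled to library size with TMM factors. Totals separated the groups without overlap. Wild-type libraries had the fewest counts (17975289 to 19009200), then knockout libraries (19066393 to 19332225), then 2-HD libraries (19339056 to 19482661). TMM factors of the wild-type libraries (0.944 to 0.979) lay below those of all other libraries (0.992 to 1.042). Depth thus went with group, and its part in the comparisons was not tested. A gene with 0 counts can have a level of up to 3 counts, or 0.148 to 0.173 CPM, and this limit covers counting error only. Expression of aldh3b1 itself was 4.62 to 7.45 CPM in wild type and 4.49 to 5.59 CPM in the knockout, so its transcript did not separate these groups. It was higher with 2-HD, at 8.13 to 13.2 CPM, with no overlap (log2 fold change 0.73, SE 0.16, adjusted p = 0.00179). On the first principal component (37.7% of the variance), 2-HD replicate 1 (8.03) lay within the knockout range (-9.31 to 9.86). The other 2-HD libraries lay at 38.8 to 49.6. On the second principal component (15.5%), wild type replicate 14 (-41.6) and 2-HD replicate 1 (-53.8) stood apart from the other 11 libraries. Members are given below also without these 2 libraries where the value changes by much. Marker genes of liver, muscle, neurons, epidermis and photoreceptors were all detected in these whole-larva samples.

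**Figure D1:**
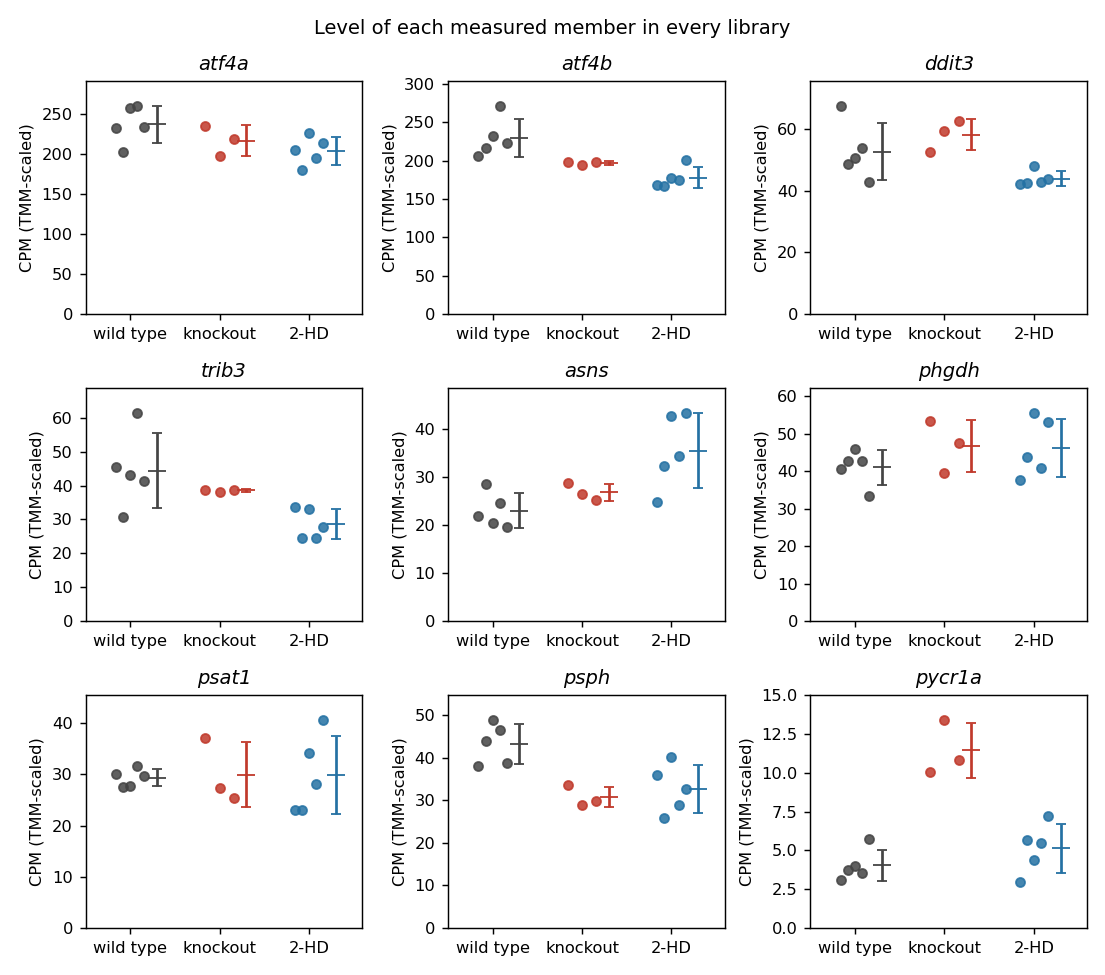
Level of the 9 measured members in each library, in CPM on a linear axis from 0; points are libraries, and the bar beside them is the mean ± SD of the group (n = 5, 3 and 5). Only pycr1a in the knockout lies far from wild type, at 10.04 to 13.4 against 3.12 to 5.72 CPM.

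With 2-HD the stress regulators atf4a, atf4b, ddit3 and trib3 were lower on average than in wild type, while asns, the asparagine synthesis gene, was higher. In the knockout the regulators lay within 0.22 of wild type on the log2 scale, and the difference that stood out was pycr1a, a proline synthesis gene, 2.84-fold higher. The last enzyme gene of serine synthesis, psph, was lower in both. A gene is called where its edgeR p, corrected by Benjamini-Hochberg across the 22158 genes tested, is below 0.05. In knockout against wild type 1 of 9 members was called higher and 1 lower, where 5.97% of all genes were called (4.1% higher, 1.86% lower). In 2-HD against wild type 1 was called higher and 5 lower, where 42.4% of all genes were called (22.7% higher, 19.7% lower). In knockout against 2-HD 2 were called higher and 0 lower, where 6.98% were called (3.93% higher, 3.06% lower); at an unadjusted p under 0.05 these were 3 and 1, and DESeq2 called 2 and 0. Nothing is read from these counts, since the members were chosen with them known. In knockout against wild type the call of pycr1a was lost without knockout replicate 3 or 7, and that of psph without either of these, wild type replicate 5, 10 or 13, or 2-HD replicate 4 or 5. With 2-HD, 3 members in place of 5 were called lower without wild type replicate 3, 10 or 13, knockout replicate 7, or 2-HD replicate 1, 2, 4 or 5. In knockout against 2-HD, 0 were called higher without knockout replicate 3, and 1 without wild type replicate 5, 10 or 13, knockout replicate 2 or 7, or 2-HD replicate 2, 3, 4 or 5. Leaving out 1 library also moved the calls over all genes. They ranged from 3 to 2071, from 8120 to 9968 and from 81 to 3229 in these 3 comparisons. The losses are therefore not read as particular to the members.

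The libraries of the groups did not overlap for 3 of 9 members in knockout against wild type (15.5% of all genes), for 1 of 9 in 2-HD against wild type (25.7%) and for 3 of 9 in knockout against 2-HD (17.8%). The median log2 fold change over the 9 members was 0.03, -0.22 and 0.09 in these comparisons, and over all genes tested 0.00, 0.02 and -0.02. The knockout mean lay between the other 2 means for 4 of 9 members (atf4a, atf4b, trib3 and asns), or 44.4%, against 56% of all genes.

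**Figure D2:**
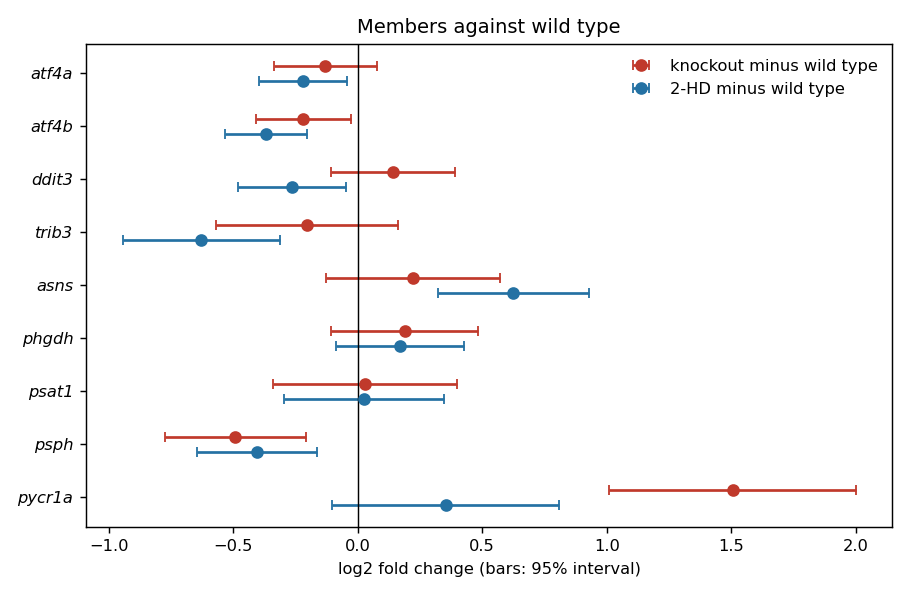
Log2 fold change of each measured member against wild type in the knockout (red) and with 2-HD (blue), with 95% intervals from the fit to all 13 libraries. The 2 comparisons share the wild-type libraries. The intervals lie to the right of 0 for pycr1a in the knockout (1.01 to 2.0) and for asns with 2-HD (0.32 to 0.93). They lie to the left of 0 for atf4b and psph in both comparisons, and for atf4a, ddit3 and trib3 with 2-HD. The members were chosen with these values known, so the intervals are a description and not a test.

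The transcription factor genes come first. Zebrafish have a pair of ATF4 genes. Expression of atf4a was 237 ± 23.1 CPM in wild type (SD, n = 5), 216 ± 18.9 CPM in the knockout (SD, n = 3) and 203.5 ± 17.8 CPM with 2-HD (SD, n = 5), and the ranges of all 3 groups overlapped. Its log2 fold change was -0.13 (SE 0.10) in the knockout and -0.22 (SE 0.08) with 2-HD. In a bulk sample, fewer cells that express a gene and less RNA per cell cannot be told apart.

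For atf4b the wild-type libraries held 206, 216.5, 231.5, 271 and 223 CPM, the knockout libraries 198.5, 194.5 and 198.6 CPM, and the 2-HD libraries 168, 167, 177, 175 and 201 CPM. All 8 libraries of the knockout and 2-HD groups lay below the lowest wild-type library, with 2-HD replicate 5 (201 CPM) nearest to it. The log2 fold change was -0.22 (SE 0.09) in the knockout and -0.37 (SE 0.08) with 2-HD. As a share of the counts of both genes, atf4a took 50.8% ± 2.13 in wild type (SD, n = 5), 52.3% ± 1.93 in the knockout (SD, n = 3) and 53.4% ± 2.0 with 2-HD (SD, n = 5), and these ranges overlapped. The share is not corrected for gene length, and how reads were divided between such related genes is not given in the sources used here.

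CHOP, encoded by ddit3, acts with ATF4 and promotes cell death under lasting stress. Its level was 67.3, 48.7, 50.5, 53.9 and 42.7 CPM in wild type, 52.5, 59.4 and 62.4 CPM in the knockout, and 42.1, 42.4, 48.0, 42.9 and 43.9 CPM with 2-HD. The knockout libraries all lay above the 2-HD libraries, and the wild-type libraries spread over both ranges, with replicate 3 above every knockout library and replicate 14 among the 2-HD libraries. Its log2 fold change was 0.14 (SE 0.12) in the knockout, -0.26 (SE 0.10) with 2-HD, and 0.41 (SE 0.12) for the knockout against 2-HD.

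The pseudokinase gene trib3 is a target of ATF4 and CHOP whose product restrains them in mammals. It stood at 45.5, 30.7, 43.1, 61.5 and 41.3 CPM in wild type, 38.7, 38.2 and 38.8 CPM in the knockout, and 33.7, 24.5, 33.1, 24.7 and 27.8 CPM with 2-HD. Of the wild-type libraries only replicate 5 (30.7 CPM) fell within the 2-HD range. On the log2 scale trib3 differed from wild type by -0.63 (SE 0.15) with 2-HD, the largest decrease among the 9 members in that comparison, and -0.20 (SE 0.17) in the knockout. Without the 2 libraries that stood apart, the value with 2-HD was -0.74 (SE 0.16).

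The glutathione-degrading enzyme gene chac1, in mammals among the most inducible targets of ATF4, was listed at 0 counts in all 13 libraries, which allows up to 0.148 to 0.173 CPM per library. No change can be read from it. Whether the counting or the annotation set this value was not tested.

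Asparagine synthetase, encoded by asns, makes asparagine from aspartate and glutamine. Its level was 21.9, 28.6, 20.4, 24.6 and 19.7 CPM in wild type, 28.8, 26.5 and 25.4 CPM in the knockout, and 24.8, 32.4, 42.7, 34.4 and 43.5 CPM with 2-HD. With 2-HD, 4 of 5 libraries lay above every wild-type and knockout library, and 2-HD replicate 1, which also stood apart on the second principal component, lay within the wild-type range. The log2 fold change was 0.62 (SE 0.14) with 2-HD and 0.22 (SE 0.16) in the knockout, and the difference between knockout and 2-HD was -0.40 (SE 0.17). The value with 2-HD was 0.65 (SE 0.12) without the 2 libraries that stood apart.

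Serine is made from a glycolytic intermediate in a chain of steps encoded by phgdh, psat1 and psph. The first gene, phgdh, ranged over 33.5 to 45.9 CPM in wild type, 39.5 to 53.4 CPM in the knockout and 37.6 to 55.6 CPM with 2-HD, with log2 fold changes of 0.19 (SE 0.14) and 0.17 (SE 0.12). For psat1 the ranges were 27.5 to 31.6, 25.3 to 37.1 and 23.1 to 40.7 CPM, with log2 fold changes of 0.03 (SE 0.17) in the knockout and 0.03 (SE 0.15) with 2-HD. Both genes overlapped between all groups. Their 95% intervals, -0.11 to 0.48 and -0.34 to 0.40 in the knockout and -0.09 to 0.43 and -0.29 to 0.34 with 2-HD, reach from small decreases to moderate increases for phgdh, and to moderate changes in either direction for psat1.

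The phosphatase of the last step, psph, differed from the other serine genes. Wild-type libraries held 38.05, 44.0, 49.0, 46.6 and 38.9 CPM, knockout libraries 33.6, 28.9 and 29.9 CPM, and 2-HD libraries 36.0, 25.8, 40.3, 28.9 and 32.5 CPM. All knockout libraries lay below wild type, and 4 of 5 2-HD libraries did, the exception being replicate 3. For psph the log2 fold change was -0.49 (SE 0.13) in the knockout and -0.40 (SE 0.11) with 2-HD. Summed levels of 10 radial glia markers moved in the same direction, at 1442 to 1584 CPM in wild-type libraries, 1142 to 1353 CPM in knockout libraries and 974 to 1120 CPM in 2-HD libraries, and so did 9 neuronal markers (2709 to 2947, 2291 to 2491 and 1753 to 2214 CPM). In the knockout 0 of the 10 and 2 of the 9 were called lower (1.86% of all genes), and with 2-HD 7 and 8 (19.7%). Summed markers of muscle (43850 to 49590, 39270 to 43750 and 34710 to 41740 CPM) and of photoreceptors were lower too. Those of hepatocytes were higher (3485 to 5430, 5662 to 6810 and 7376 to 8602 CPM). Those of macrophages and neutrophils were higher with 2-HD, and those of epidermis and exocrine pancreas overlapped. None of these markers was at 0, and their part in the level of psph was not tested.

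The last step of proline synthesis is carried out by pyrroline-5-carboxylate reductase, for which pycr1a, pycr1b and pycr3 are the genes in the table. The level of pycr1a was 3.12, 3.76, 3.96, 3.57 and 5.72 CPM in wild type, 10.04, 13.4 and 10.9 CPM in the knockout, and 2.94, 5.67, 4.39, 5.48 and 7.18 CPM with 2-HD. These values rest on 58 to 99, 196 to 262 and 57 to 145 counts. Every knockout library lay above every other library, and the wild-type and 2-HD ranges overlapped. The log2 fold change in the knockout was 1.51 (SE 0.23), with 95 of 22158 genes having a larger one, and that with 2-HD was 0.35 (SE 0.21). The value with 2-HD was 0.63 (SE 0.16) without the 2 libraries that stood apart, in which pycr1a was highest of its group (wild type replicate 14) and lowest (2-HD replicate 1), and that in the knockout was then 1.66 (SE 0.17). Set directly against 2-HD, the knockout was higher by 1.16 on the log2 scale (SE 0.23).

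The paralogue pycr1b, outside the 10 genes, did not pass the test in the knockout (32.7 ± 3.23 to 33.7 ± 1.58 CPM, log2 fold change 0.04, SE 0.10, adjusted p = 0.838; SD, n = 5 and 3). The share of pycr1a in the counts of both ranged over 7.91 to 17.2% in wild-type libraries, 22.4 to 28.1% in knockout libraries and 8.66 to 15.8% in 2-HD libraries, so that the knockout range lay above the other 2. The third reductase gene, pycr3, rose in the knockout from 4.15 ± 0.966 to 6.98 ± 1.05 CPM (log2 fold change 0.75, SE 0.18, adjusted p = 0.0291) and with 2-HD to 5.64 ± 0.721 CPM (0.44, SE 0.16, adjusted p = 0.0341; SD, n = 5). The call with 2-HD was lost without wild type replicate 3, 13 or 14 or 2-HD replicate 2, 4 or 5 (adjusted p = 0.0568 to 0.0845), and that in the knockout without wild type replicate 10 or 13 or any one of the knockout libraries (adjusted p = 0.0523 to 0.166). For pycr3 the log2 level in the knockout exceeded that with 2-HD by 0.31 (SE 0.17, adjusted p = 0.285). The enzyme gene before the reductases, aldh18a1, did not pass the test in either comparison (log2 fold change 0.08, adjusted p = 0.750, and 0.13, adjusted p = 0.359).

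Both pycr1a and the targeted gene aldh3b1 are placed on chromosome 3 in assembly GRCz12tu, 294 measured protein-coding genes apart, and so is atf4b, 214 genes from aldh3b1. The gene order of the build used for counting, GRCz11, was not used here. This order was looked up after the values of pycr1a were seen. The 20 measured genes nearest pycr1a, 10 on each side, had a median log2 fold change of 0.02 in the knockout. Of them 2 were called higher and 1 lower, where 4.1% and 1.86% of all genes were. These were sdr42e2, 6 genes away (1.97, SE 0.41, adjusted p = 0.0206), notum1a, which encodes a Wnt-inactivating enzyme (0.92, SE 0.22, adjusted p = 0.0307), and the photoreceptor gene fscn2a (-0.89, SE 0.18, adjusted p = 0.0170). Summed photoreceptor markers were 9985 to 13110 CPM in wild-type libraries and 7115 to 9350 CPM in knockout libraries, with 1 of 10 called lower (1.86% of all genes). In 2-HD libraries they were 6159 to 8794 CPM, with 9 of 10 called lower (19.7% of all genes). With 2-HD, notum1a rose too (1.18, SE 0.19, adjusted p = 0.000307), and so did fscn2a (0.40, SE 0.14, adjusted p = 0.0343). On chromosome 3, 82 of 879 measured genes (9.33%) were called in the knockout, and 998 of 16648 placed elsewhere (5.99%). Of the 20 measured genes nearest aldh3b1 itself, 1 was called higher and 0 lower, with a median of -0.0957. Nearest atf4b, 0 of 20 were called higher and 0 lower, with a median of -0.0935. What part the position has in the level of pycr1a was not tested.

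**Figure D3:**
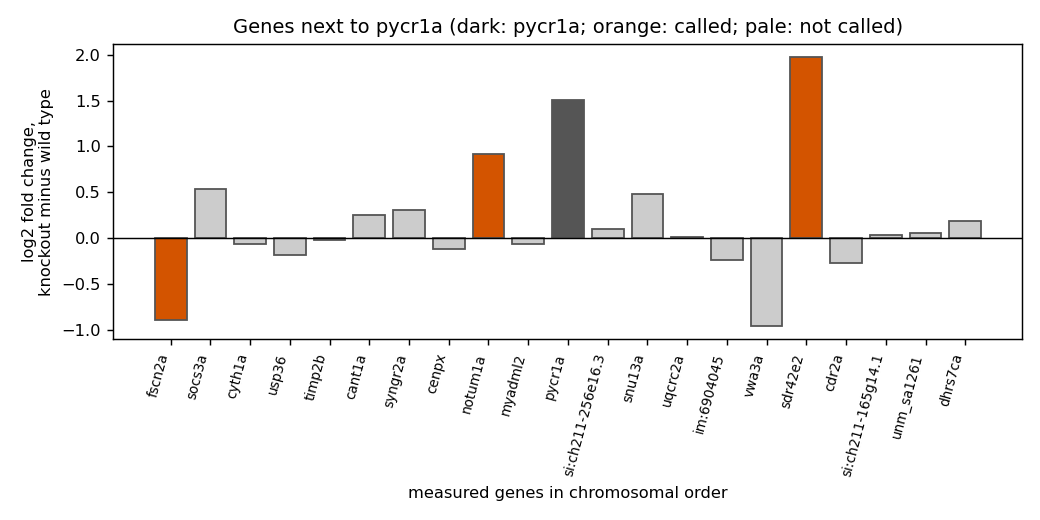
Log2 fold change of the knockout against wild type for pycr1a (dark bar) and the 10 measured genes on each side of it in the order of assembly GRCz12tu; orange bars passed the test and pale bars did not. The tall bars of pycr1a (1.51) and sdr42e2 (1.97) stand among neighbours with a median of 0.02.

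The rest of the pathway was followed in 10 lists of genes, 179 in all, of which 170 were in the table and all 170 were tested. These lists too were chosen with earlier results of these data known, so their adjusted p-values are no independent check of the pathway. Counts for the lists at an unadjusted p under 0.05 and by DESeq2 are given without the share of all genes, so nothing is read from them. In the knockout 8 of the 170 genes rose and 1 fell (5.29% called, near the 5.97% of all genes), with a median log2 fold change of 0.10 against 0.00 for all genes. By direction, 4.71% were higher and 0.588% lower, against 4.1% and 1.86% of all genes. Of the 9 calls, 4 were rises in the one-carbon list, 3 were rises in the list with proline enzymes, 1 was the rise of pck2 and 1 the fall of slc38a2. Of 18 serine, glycine and one-carbon genes 22.2% were called, against 5.97% of all genes (4.1% higher). Of these 18, 4 rose and 0 fell (6 and 0 at an unadjusted p under 0.05, 5 and 0 by DESeq2), with a median of 0.18.

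The largest of these rises was that of mthfd1l, the mitochondrial formate-producing enzyme gene, at 8.15 to 14.3 CPM in wild type and 23.3 to 41.3 CPM in the knockout (log2 fold change 1.49, SE 0.21, edgeR adjusted p = 0.00740). With 2-HD mthfd1l rose too, with overlap (0.86, SE 0.19, adjusted p = 0.0022). Knockout against 2-HD did not pass the test for it (0.64, SE 0.20, adjusted p = 0.0716). Other rises in the knockout were mthfd1a (0.81, SE 0.20, adjusted p = 0.0343) and mthfd1b (0.30, SE 0.08, adjusted p = 0.0490), the cytosolic relatives of mthfd1l, and shmt2, which converts serine to glycine in mitochondria (37.3 ± 7.21 to 54.3 ± 4.13 CPM, 0.54, SE 0.12, adjusted p = 0.0264). The mitochondrial folate enzyme gene mthfd2, a known ATF4 target in mammals, did not pass the test (-0.01, SE 0.21, adjusted p = 0.983). Of 18 proline, glutamate and aspartate genes 16.7% were called in the knockout, against 5.97% of all genes (4.1% higher). Of these 18, 3 rose and 0 fell (5 and 3 at an unadjusted p under 0.05, 4 and 1 by DESeq2), with a median of 0.05. They were pycr3, the ornithine aminotransferase gene oat (0.46, SE 0.12, adjusted p = 0.0373) and aldh4a1 of proline breakdown (0.43, SE 0.12, adjusted p = 0.0493).

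Among 18 other ATF4 target genes, pck2, of mitochondrial phosphoenolpyruvate synthesis, rose in the knockout (133 ± 20.1 to 184 ± 15.8 CPM, 0.47, SE 0.11, adjusted p = 0.0319). Among 17 amino acid transporters slc38a2, a carrier of neutral amino acids, fell (155 ± 10.8 to 125 ± 11.8 CPM, -0.31, SE 0.08, adjusted p = 0.0423), as it did with 2-HD (-0.29, SE 0.07, adjusted p = 0.00491). In the knockout the other 6 lists, with 99 genes in all, had no call by edgeR, where 5.97% of all genes were called. They hold the eIF2alpha kinases, partner transcription factors, tRNA synthetases, glutathione genes, chaperones of the endoplasmic reticulum and those of mitochondria. Of the 99 genes, 12 were higher and 1 lower at an unadjusted p under 0.05, and 2 were higher and 0 lower by DESeq2. The shares of all genes at these settings are not given here, so no trend is read from these counts. Among those that did not pass the test were the kinase gene eif2ak3 (log2 fold change 0.17, adjusted p = 0.166), the phosphatase genes ppp1r15a (-0.25, adjusted p = 0.215) and ppp1r15b (0.55, adjusted p = 0.0782), the partner genes atf3 (-0.15, adjusted p = 0.8) and cebpb (0.19, adjusted p = 0.78), and the chaperone gene hspa5 (0.35, adjusted p = 0.344). The calls in the knockout rested on few libraries. Of the 170 genes, 1 rose without knockout replicate 3, 0 without knockout replicate 7, 1 each without wild type replicate 10 and wild type replicate 13, 5 each without wild type replicate 14 and knockout replicate 2, and 4 without 2-HD replicate 4. Over all genes tested, 3 were called without knockout replicate 3. Summed hepatocyte markers were 3485 to 5430 CPM in wild-type libraries and 5662 to 6810 CPM in knockout libraries, with 2 of 10 called higher (4.1% of all genes) and none at 0, and their part in the rises of enzyme genes was not tested. The rise of mthfd1l lost its call in 2 of the 19 alternatives, those of pck2, pycr3 and shmt2 in 7, and those of mthfd1a and oat in 9. The fall of slc38a2 lost its call in 13, and the rises of mthfd1b and aldh4a1 in 15.

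**Figure D4:**
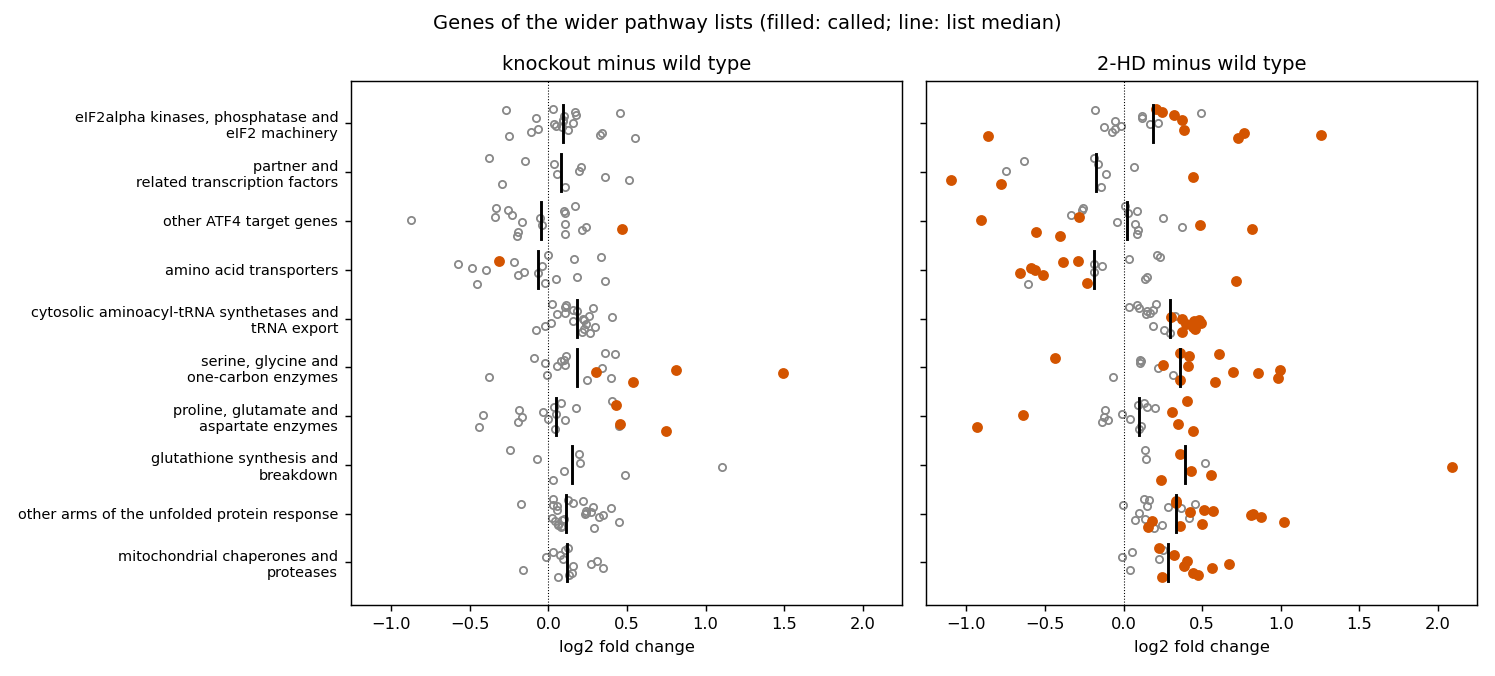
Log2 fold change of each of the 170 genes of the wider pathway, by list, in the knockout (left) and with 2-HD (right) against the same wild types; filled points passed the test and the black line is the list median. The 2-HD panel has 63 rises and 17 falls, and the knockout panel 8 rises and 1 fall.

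With 2-HD, 63 of the 170 genes rose and 17 fell (47.1% called, against 42.4% of all genes), with a median of 0.18 against 0.02 for all genes. By direction, 37.1% were higher and 10% lower, against 22.7% and 19.7% of all genes. Of 20 genes of the eIF2alpha machinery 8 rose and 1 fell (40% and 5%, against 22.7% and 19.7% of all genes). In either direction 45% were called, near the 42.4% of all genes, with a median of 0.19. The fall was that of ppp1r15a, which encodes GADD34, the stress-induced subunit that directs removal of the eIF2alpha phosphate. It stood at 69.3 to 104 CPM in wild type and 41.6 to 56.0 CPM with 2-HD, with no overlap (-0.86, SE 0.11, adjusted p = 6.35e-05). Its constitutive relative ppp1r15b rose (3.62 ± 0.766 to 6.01 ± 0.647 CPM, 0.73, SE 0.16, adjusted p = 0.00217).

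Of the eIF2alpha kinases, eif2ak3 (PERK, the sensor in the endoplasmic reticulum) rose from 29.8 ± 1.96 to 37.3 ± 1.94 CPM (0.32, SE 0.06, adjusted p = 0.00131). The haem-regulated kinase gene eif2ak1 (0.25, SE 0.09, adjusted p = 0.0384) and the row named EIF2AK4, the symbol of the amino acid sensor GCN2 (0.21, SE 0.08, adjusted p = 0.0490), passed the test narrowly. The call of eif2ak1 was lost in 13 of 19 alternatives (adjusted p = 0.052 to 0.686), among them RLE factors, DESeq2 and leaving out wild type replicate 10, 13 or 14, knockout replicate 3 or 2-HD replicate 2, 3 or 4. That of EIF2AK4 was lost in 15 (adjusted p = 0.0542 to 0.111), among them RLE factors, DESeq2 and leaving out wild type replicate 3, 5, 10 or 13, knockout replicate 2 or 3 or 2-HD replicate 1, 3 or 5. The RNA-sensing kinase gene eif2ak2 did not pass the test (0.49, SE 0.20, adjusted p = 0.0571), but did without 2-HD replicate 1 (0.65, adjusted p = 0.00146). Other rises in this list were gcn1, an activator of GCN2 (0.38, adjusted p = 0.00165), and oma1, a mitochondrial stress protease gene (0.77, adjusted p = 0.00145).

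Of 10 partner and related transcription factor genes 1 rose and 2 fell with 2-HD (10% and 20%, against 22.7% and 19.7% of all genes). Together 30% were called, against 42.4% of all genes, with a median of -0.18. The stress regulator gene nupr1a fell from 56.5 ± 11.6 to 32.9 ± 5.37 CPM (-0.78, SE 0.15, adjusted p = 0.000853), jdp2b fell (-1.10, adjusted p = 0.0278) and jdp2a rose (0.44, adjusted p = 0.0433). The call of jdp2b was lost without wild type replicate 3 or 2-HD replicate 3, 4 or 5 (adjusted p = 0.0521 to 0.08). That of jdp2a was lost in 12 of 19 alternatives (adjusted p = 0.0525 to 0.123), among them RLE factors, DESeq2 and leaving out wild type replicate 3, 5, 10 or 13, knockout replicate 7 or 2-HD replicate 2 or 3. The ATF4 partners and relatives atf3 (-0.64, SE 0.26, adjusted p = 0.0658), cebpb (-0.75, SE 0.31, adjusted p = 0.0666), cebpg (-0.11, adjusted p = 0.241), atf5a (-0.16, adjusted p = 0.115) and atf5b (0.06, adjusted p = 0.652) did not pass it. By DESeq2 atf3 did (-0.66, adjusted p = 0.0294), as it did without wild type replicate 5 or 10 or 2-HD replicate 3, and cebpb did without wild type replicate 10 or 14 or 2-HD replicate 1 (-0.94 without the last, adjusted p = 0.0269). Of 18 other targets 2 rose and 4 fell (11.1% and 22.2%, against 22.7% and 19.7% of all genes). Together 33.3% were called, against 42.4% of all genes, with a median of 0.02. Here pck2 rose from 133 ± 20.1 to 234 ± 18.6 CPM (0.82, SE 0.10, adjusted p = 6.35e-05), and the lipoprotein receptor gene vldlr (-0.41, adjusted p = 0.000111), stc2a (-0.56, adjusted p = 0.00138) and the stress hormone gene fgf21 (-0.91, adjusted p = 0.00477) fell. The level of fgf21 was low, at 1.26 ± 0.26 CPM in wild type and 0.67 ± 0.11 CPM with 2-HD, and the libraries overlapped. The amino acid sensor gene sesn2 did not pass the test (0.09, SE 0.26, adjusted p = 0.806).

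Of 17 amino acid transporters 1 rose and 7 fell with 2-HD (5.88% and 41.2%, against 22.7% and 19.7% of all genes). In either direction 47.1% were called, against 42.4% of all genes, with a median of -0.19. Among the falls were the cationic amino acid carrier genes slc7a3a (98.4 ± 20.4 to 62.2 ± 3.08 CPM, -0.66, SE 0.12, adjusted p = 0.000480) and slc7a3b (-0.51, adjusted p = 0.00174), and the glycine transporter gene slc6a9 (-0.56, adjusted p = 0.000402). The rise was that of slc7a7, also of cationic amino acids (0.71, adjusted p = 0.00151). Of 18 proline, glutamate and aspartate genes 4 rose and 2 fell (22.2% and 11.1%, against 22.7% and 19.7% of all genes). Together 33.3% were called, against 42.4% of all genes, with a median of 0.10. Lower were the glutamine synthetase gene glula (-0.64, adjusted p = 0.000227) and prodhb of proline breakdown (-0.93, adjusted p = 0.00148). Among the rises were oat (0.35, adjusted p = 0.0129) and the row named ASS1, of arginine synthesis (0.40, adjusted p = 0.00836). Radial glia and neuronal markers fell with 2-HD (7 of 10 and 8 of 9 called lower, against 19.7% of all genes). So did muscle and photoreceptor markers (6 of 9 and 9 of 10). Markers called higher were 8 of 10 of hepatocytes, 4 of 9 of epidermis, 4 of 9 of macrophages and neutrophils, and 1 of 9 of muscle. The part of any of these in the falls of transporter and glutamine synthetase genes was not tested.

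With 2-HD, 42.9% of 21 genes of cytosolic tRNA charging and export were called, near the 42.4% of all genes (22.7% higher). Of the 21, 9 rose and 0 fell (12 and 0 at an unadjusted p under 0.05, 8 and 0 by DESeq2, median 0.29). Examples were rars1 (0.40, adjusted p = 0.00278), lars1b (0.37, adjusted p = 0.00352), xpot, an exporter of tRNA (0.37, adjusted p = 0.00560), and qars1 (0.49, adjusted p = 0.00675). Of 18 serine, glycine and one-carbon genes 11 rose and 1 fell (61.1% and 5.56%, against 22.7% and 19.7% of all genes). In either direction 66.7% were called, against 42.4% of all genes, with a median of 0.36. Among the rises were mthfd1b (30.4 ± 3.20 to 49.2 ± 2.16 CPM, 0.69, SE 0.07, adjusted p = 4.02e-05), sdsl of serine breakdown (0.98, adjusted p = 0.00033), mthfd1a (1.00, adjusted p = 0.000558) and shmt2 (0.58, SE 0.11, adjusted p = 0.000698). The gene mthfd2 did not pass the test here either (0.31, SE 0.18, adjusted p = 0.182), but did without 2-HD replicate 1 (0.44, adjusted p = 0.0371).

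With 2-HD, 62.5% of 8 glutathione genes were called, against 42.4% of all genes (22.7% higher). Of the 8, 5 rose and 0 fell (5 and 0 both at an unadjusted p under 0.05 and by DESeq2, median 0.39). Among the rises were gclc, of the limiting step of glutathione synthesis (36.2 ± 2.53 to 46.4 ± 3.29 CPM, 0.36, SE 0.07, adjusted p = 0.00118), gss (0.56, adjusted p = 0.00517), gsr (0.43, adjusted p = 0.00745) and ggt1b (2.09, SE 0.32, adjusted p = 0.000201). The paralogue of chac1, chac2, was measured at 3.29 to 8.37 CPM in wild type and did not pass the test with 2-HD (0.14, SE 0.23, adjusted p = 0.665) or in the knockout (-0.24, SE 0.27, adjusted p = 0.617).

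With 2-HD, 50% of 26 genes of the other arms of the unfolded protein response were called, against 42.4% of all genes (22.7% higher). Of the 26, 13 rose and 0 fell (13 and 0 at an unadjusted p under 0.05, 11 and 0 by DESeq2, median 0.33). The chaperone gene hspa5 (BiP) went from 168 ± 42.3 to 294 ± 74.7 CPM (0.81, SE 0.19, adjusted p = 0.00367), hsp90b1 from 160.2 ± 38.9 to 283 ± 48.8 CPM (0.82, SE 0.15, adjusted p = 0.000681), and hyou1 (0.88, adjusted p = 0.00220), sel1l (0.36, adjusted p = 0.000508) and edem1 (0.42, adjusted p = 0.00173) rose as well. Libraries of the 2 groups overlapped for hspa5, hsp90b1 and hyou1, but not for sel1l and edem1. In 2-HD replicate 1 hspa5 stood at 165 CPM, within the wild-type range of 124 to 220 CPM. There hsp90b1 stood at 201 CPM, within 118 to 223 CPM. Of 14 mitochondrial chaperone and protease genes 64.3% were called, against 42.4% of all genes (22.7% higher). Of the 14, 9 rose and 0 fell (10 and 0 at an unadjusted p under 0.05, 9 and 0 by DESeq2, median 0.29). Among the rises were hspd1 (0.67, adjusted p = 0.00509), lonp1 (0.56, adjusted p = 0.0104), trap1 (0.44, adjusted p = 0.00465) and yme1l1a (0.47, adjusted p = 0.00726). For each of these named genes the libraries of the 2 groups overlapped. Of 2 secretory tissues, 1 differed in its markers. Summed hepatocyte markers reached 7376 to 8602 CPM in 2-HD libraries, above the wild-type range, with 8 of 10 called higher (22.7% of all genes). Exocrine pancreas markers overlapped, at 1387 to 3255 CPM in wild-type and 1650 to 3565 CPM in 2-HD libraries, with 0 of 10 called. None of these markers was at 0, and their part in the rise of chaperone genes was not tested.

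Set directly against 2-HD, the knockout had 3 of the 170 genes higher and 2 lower (2.94% called, against 6.98% of all genes). By direction these were 1.76% and 1.18%, against 3.93% and 3.06% of all genes. Higher were ppp1r15a (69.7 ± 2.65 against 45.7 ± 5.88 CPM, log2 difference 0.61, SE 0.12, adjusted p = 0.0161), slc7a3a (0.59, SE 0.13, adjusted p = 0.0209) and jdp2b (1.61, SE 0.41, adjusted p = 0.0332). Lower were mthfd1b (-0.39, SE 0.09, adjusted p = 0.0205) and sel1l (-0.27, SE 0.07, adjusted p = 0.0412). For hspa5 the log2 difference was -0.46 (SE 0.22, adjusted p = 0.209). It passed the test without 2-HD replicate 1 (-0.60, adjusted p = 0.0301), without this library and wild type replicate 14 (-0.59, adjusted p = 0.0153) and with a replicate block (-0.62, adjusted p = 0.0466). Of the calls above, that of sel1l was lost in 12 of the 19 alternatives, that of jdp2b in 7, that of mthfd1b in 4, that of ppp1r15a in 3 and that of slc7a3a in 2, each of them without knockout replicate 3 among others. Without 2-HD replicate 1, 9 of the 170 genes were higher and 15 lower, while calls over all genes went from 1547 to 3229. Without knockout replicate 3 the counts among the 170 were 0 and 0, with 81 calls over all genes. Without knockout replicate 2 or knockout replicate 7 the counts among the 170 were 1 and 0. Without wild type replicate 5, 6 genes were lower, and without 2-HD replicate 2, 3, 4 or 5 only 1 was.

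How the members varied among libraries of 1 group was read from deviations of log2 CPM from the group mean, which leaves the comparisons between groups out. Over the 13 libraries, 28 of 36 pairs of members had a Pearson r above 0, with a median of 0.32 and a range of -0.44 to 0.74. These points share library depth and normalisation, and the values are a description. The most alike pairs were atf4a with trib3 (0.74), asns with phgdh (0.71), atf4a with psph (0.70) and asns with psat1 (0.68). The member least like the others was pycr1a, with a median r of -0.10, and the lowest pair was psph with pycr1a (-0.44). For ddit3 the median was 0.08.

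**Figure D5:**
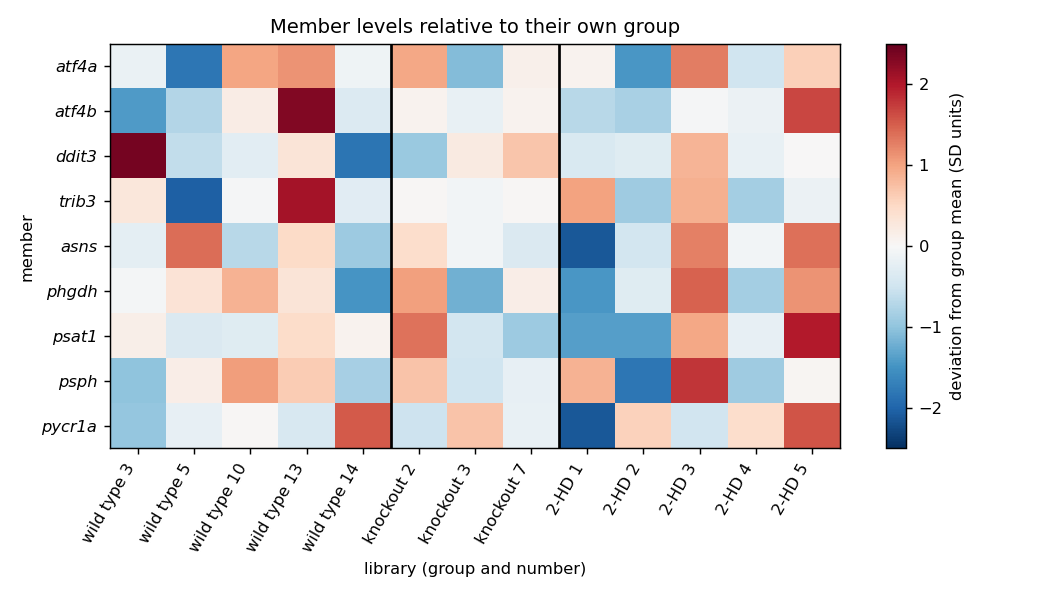
Deviation of each measured member from the mean of its own group in each of the 13 libraries, in units of the SD of these deviations; red is above and blue below the group mean, and black lines divide the groups. In 2-HD replicates 3 and 5 most members are above their group mean. The order of pycr1a runs against psph (r = -0.44), trib3 (-0.41) and ddit3 (-0.37), and partly with asns (0.32), psat1 (0.31) and atf4b (0.285).

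Averaged over the 9 members, the deviation was highest in 2-HD replicate 5 (0.91), 2-HD replicate 3 (0.89) and wild type replicate 13 (0.81), and lowest in 2-HD replicate 2 (-0.75) and 2-HD replicate 1 (-0.69). Of 15625 genes compared, those whose deviations followed this average most closely were elac2, a tRNA-processing enzyme gene (r = 0.92, rho = 0.91), trim59 (r = 0.92, rho = 0.79), emc2, of the membrane protein insertion complex of the endoplasmic reticulum (r = 0.89, rho = 0.88), and rab22a (r = 0.89, rho = 0.93). The next were the DNA repair gene tdp1 (0.87), the cell cycle gene rbl2 (0.86), tspan10 (0.86) and the proteasome subunit gene psmb7 (0.86). Without the 2 libraries farthest from the median, 2-HD replicates 3 and 5, r over these 8 genes was 0.75 to 0.93. The choice of genes was less stable. With another prior count, or without wild type replicate 14 and 2-HD replicate 1, these genes stayed among the 8 highest in 10 cases and dropped out in 6. These genes were picked as the highest of all those compared.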

How the data were processed

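Per the submitters' processing notes, the tools used were HISAT2 2.2.1, featureCounts 2.0.1 and Trim Galore 0.6.7, with build GRCz11. The annotation, strand setting and treatment of multiply mapped reads are not given in the sources used here, so counts of paralogues and overlapping genes are uncertain. The authors deposited whole-number counts per gene symbol, not normalized. Each column matched 1 description label. For 1 wild-type library the title gives another number than the description, which was used.

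Tests were run in R 4.3.3 with edgeR 4.0.16, on genes that passed filterByExpr (minimum count 10). After TMM scaling, glmQLFit took the 13 libraries together, with a mean for each of the 3 groups (common biological coefficient of variation 0.151). Adjusted p-values are Benjamini-Hochberg over the 22158 genes tested, and standard errors come from the fold change and its F statistic. Log2 CPM used a prior count of 2. The steps were tested on simulated counts. Pairs of libraries within a group differed by more than sampling noise, so none was treated as a duplicate.

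The members, lists and tests were chosen with earlier results of these data known. Named list genes are the partners and paralogues of the members and, per list, up to 4 called genes with the smallest adjusted p (up to 2 for knockout against 2-HD). Likeness took the 8 genes with the highest r among those averaging 1 or more in log2 CPM. Alternatives were RLE factors, DESeq2 1.42.0, no filter, only the 2 groups compared, a replicate block, and leaving out libraries. A planned search of promoters and comparison of proteins was not run, since no sequences were used here.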

Additional observations from a re-analysis of the deposited data

How the results depend on the processing

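The direction of each of the 9 measured members held in all 19 alternatives except ddit3 and psat1 in knockout against wild type (18 of 19 each), psat1 with 2-HD (17), and phgdh (14), psat1 (14) and psph (18) in knockout against 2-HD. In knockout against wild type, values that kept their sign came down to -0.000555 for atf4a, -0.00753 for atf4b and -0.000944 for trib3. The alternatives include leaving out each of the 13 libraries in turn, also those of the group outside a comparison. The log2 fold change of pycr1a in the knockout ranged from 1.38 to 2.01, that of asns with 2-HD from 0.54 to 0.73, that of trib3 with 2-HD from -0.74 to -0.38 and that of psph in the knockout from -0.56 to -0.28. Leaving out 1 library at a time, members called higher and lower numbered 0 to 1 and 0 to 1 in knockout against wild type, 1 to 2 and 3 to 5 with 2-HD, and 0 to 2 and 0 to 1 in knockout against 2-HD. Genes of the wider lists numbered 0 to 12 and 0 to 3, 48 to 74 and 15 to 20, and 0 to 9 and 0 to 15 in the same order. Calls over all genes ranged from 3 (without knockout replicate 3) to 2071 (without wild type replicate 3), from 8120 to 9968, and from 81 to 3229.

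Without wild type replicate 14 and 2-HD replicate 1 together, 2 members were higher with 2-HD, 1 was lower in knockout against 2-HD, and 10 and 19 genes of the wider lists were higher and lower there. With only the 2 groups in the fit, members called lower were 0 in the knockout and 3 with 2-HD, and 1 and 0 genes of the wider lists were higher and lower in the knockout. With no filter, 3 members were lower with 2-HD, 1 was higher in knockout against 2-HD, and wider-list genes called lower were 0 in the knockout and 1 against 2-HD. For the wider lists, 3 fell in the knockout with RLE factors and 4 with DESeq2, which gave 5 higher and 7 lower in knockout against 2-HD. Calls over all genes under these settings are not given here, so the changes are not read as particular to these genes. The causes were not tested. A planned search for promoter motifs and a comparison of paralogous proteins were not run.

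Numbers 2, 3 and 5 occur in more than 1 group. Deviations of same-numbered libraries correlated at -0.00416 to 0.264, within the -0.323 to 0.483 of differently numbered libraries across groups. The numbers were therefore not taken to pair them. The highest value was that of wild type replicate 14 with 2-HD replicate 1, the libraries that stood apart on the second principal component. A replicate block leaves few residual degrees of freedom. Libraries whose number occurs in only 1 group then add nothing to the comparisons, which rest on those numbered 2, 3 and 5. For the knockout these are replicates 2 and 3 alone, and for wild type replicates 3 and 5. With the block, members called higher and lower were 0 and 0 in the knockout, 1 and 0 with 2-HD and 0 and 0 between knockout and 2-HD. Wider-list genes were 0 and 0, 23 and 9, and 2 and 2. Calls over all genes with the block are not given here, so these losses are not read as particular to the pathway. Of the 2-HD calls on named list genes, 20 were lost with this block and in no other alternative. The log2 fold change of pycr1a was then 2.01 in the knockout and 0.83 with 2-HD.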
